A study of Mus musculus with 6 samples.

Results

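Haematopoietic progenitors of the liver were defined here as CD45+ cells with a high mean score of Cd34, Sox4, Cdk6 and Ctla2a. A cell was a member when the mean deposited score of these 4 genes was above 1.5, the mean of Kdr and Ptprb (endothelial receptors) was below 1 and the mean of Cd3e and Cd3g (T cell receptor complex) was below 1. The rule took 660 of 23008 cells. Because expression chose the cells, the levels of the rule genes, and those of any gene against the remaining cells, are descriptions and carry no test.

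Haematopoietic progenitors are the immature cells from which blood and immune lineages arise. They reside mainly in the bone marrow of adult mice, the liver is a blood-forming organ during fetal life, and extramedullary haematopoiesis can return to the adult liver and spleen under stress, including tumour growth. Early progenitors carry the receptor tyrosine kinases KIT and FLT3, and they lose CD34 as they commit. Granulocyte-monocyte progenitors switch on the genes of primary granule proteins (Mpo, Elane, Prtn3, Ctsg), while lymphoid, dendritic, basophil and erythroid-megakaryocyte progenitors switch on other sets.

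The study profiled CD45+ cells from livers of Balb/c mice after intracardiac injection of 4T07, a line of mouse mammary tumour cells. The tumour cells carried a pLKO vector with either a scramble sequence (Ctrl) or a shRNA against Tim3 (Tim3-KD), so the knock-down was in the tumour cells and not in the immune cells measured. Liver pieces were dissociated at day 3 for adjacent tissue (AT) and micrometastasis (Micro), and at day 12 for macrometastasis (Macro), and CD45+ cells were sorted and run on a droplet 3′ platform. Each of the 6 libraries pooled a pair of mice and stood alone in its group, so no difference between groups had a replicate check and no test was made. In Macro the day differed together with the stage, so the 2 cannot be told apart. Intervals below are 95% intervals of counting error only.

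Total depth ranged from 7086531 UMIs (AT Tim3-KD, 542 cells) to 79971805 UMIs (Micro Tim3-KD, 5142 cells). Except in AT Tim3-KD, members were deep cells, with a median of 38202 UMIs in AT Ctrl against 8549 in the other cells of that library, 17641 against 7383 in Micro Ctrl, 20581 against 9141 in Micro Tim3-KD, 14994 against 6245 in Macro Ctrl and 25324 against 7169 in Macro Tim3-KD. They therefore held 9.16%, 5.95%, 5.43%, 3.24% and 7.54% of the UMIs of these libraries. The 3 members of AT Tim3-KD had a median of 8357 UMIs against 10255 in its other cells. Pairs of libraries shared between 0 and 11 cell barcodes, and no shared barcode was a member in both.

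The rule genes were Cd34 (a sialomucin of the progenitor surface, GRCm38 chromosome 1, 194938819 to 194961279, plus strand), Sox4 (a transcription factor, chromosome 13, 28948919 to 28953713, minus strand), Cdk6 (a cyclin-dependent kinase of G1, chromosome 5, 3341485 to 3531008, plus strand) and Ctla2a (a cysteine protease inhibitor, chromosome 13, 60934155 to 60936625, minus strand). Their mean score passed 1.5 in 89 AT, 399 Micro and 307 Macro cells. The endothelial limit then removed 4, 15 and 32 of these, the T cell limit 8, 46 and 26, and 4 Macro cells failed both. The members just inside the threshold were unlike each other, since the nearest AT cell, at 1.51, held 32 UMIs of Ctla2a and none of the other 3 genes, and the nearest Micro cell, at 1.5038, held a single UMI of Sox4. Just outside, at 1.4964, lay an AT cell with UMIs of all 4 genes (6 Cd34, 9 Sox4, 29 Cdk6 and 2 Ctla2a among 85158 UMIs). Of the 660 members, 350 carried UMIs of all 4 rule genes, 129 of 3, 93 of 2 and 88 of a single one.

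The label was checked with 11 progenitor genes that the rule did not use (Kit, Flt3, Cd27, Myb, Gata2, Adgrl4, Ly6a, Egfl7, Slamf1, Esam and Ikzf2). At least 3 of them had a UMI in 499 members (75.61%), against 1.132% of 1944 B-like cells, which served as the measure of free RNA and were shallower, with median depths of 8380, 3713 and 4062 UMIs in AT, Micro and Macro. By library the share was 77.03% in AT Ctrl, 65.16% in Micro Ctrl, 83.61% in Micro Tim3-KD, 65.28% in Macro Ctrl and 81.5% in Macro Tim3-KD. The 504 members with a UMI of Cd34 and the 156 without one differed in this respect, with at least 3 of the 11 genes in 91.47% and in 24.36%. Cells without a Cd34 UMI were also shallower, with a median of 5881.5 UMIs against 42662 in AT Ctrl and 3751 against 24816 in Micro Ctrl, so the sets differed in depth as well as in genes. Of the 11 genes, 2 did not set the members apart, since Ly6a stood at 5.30, 8.09 and 3.57 CPM in members of AT, Micro and Macro against 7.08, 8.68 and 9.84 CPM in all other cells (CPM are UMIs of a gene scaled to the same total for every group of cells). Esam stood at 1.77, 3.00 and 3.41 CPM in members against 3.01, 2.697 and 17.1 CPM in all other cells.

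Markers of other immune cells were present in some members. At least 2 UMIs of another type's genes were found in 142 of the 660 members (21.52%), and these were 34 cells marked by B cell genes (Ms4a1, Fcmr), 46 by genes of mature neutrophils (Cxcr2, Mmp8, Stfa2l1), 31 by NK genes (Ncr1, Klre1, Gzma, Eomes), 25 by Kupffer cell genes (Clec4f, Vsig4, Timd4, Cd5l), 11 by T cell and 8 by endothelial genes, with some cells in more than 1 class. The share of members so marked was 20.27% in AT Ctrl, 30.97% in Micro Ctrl, 7.65% in Micro Tim3-KD, 33.33% in Macro Ctrl and 21.97% in Macro Tim3-KD. Among members with a Cd34 UMI it was 10.71%, and among those without it 56.41%. How far free RNA brought deep cells to 2 UMIs of these genes was not tested. The data thus went against the label for part of the cells, and values for the members with a Cd34 UMI, a set chosen after the values had been seen, are given below beside those for all members.

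The 3 members of AT Tim3-KD carried few of the progenitor genes. Each held UMIs of 2 of the 4 rule genes (Cdk6 and Ctla2a), while Cd34, Sox4, Flt3 and Myb had no UMI in them and Kit had UMIs in a single cell. All 3 carried NK genes, and the summed level of the NK list was 24410 CPM. They are counted in the share of members and in values given for AT as a whole, and left out of the other comparisons between libraries.

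**Figure D1:**
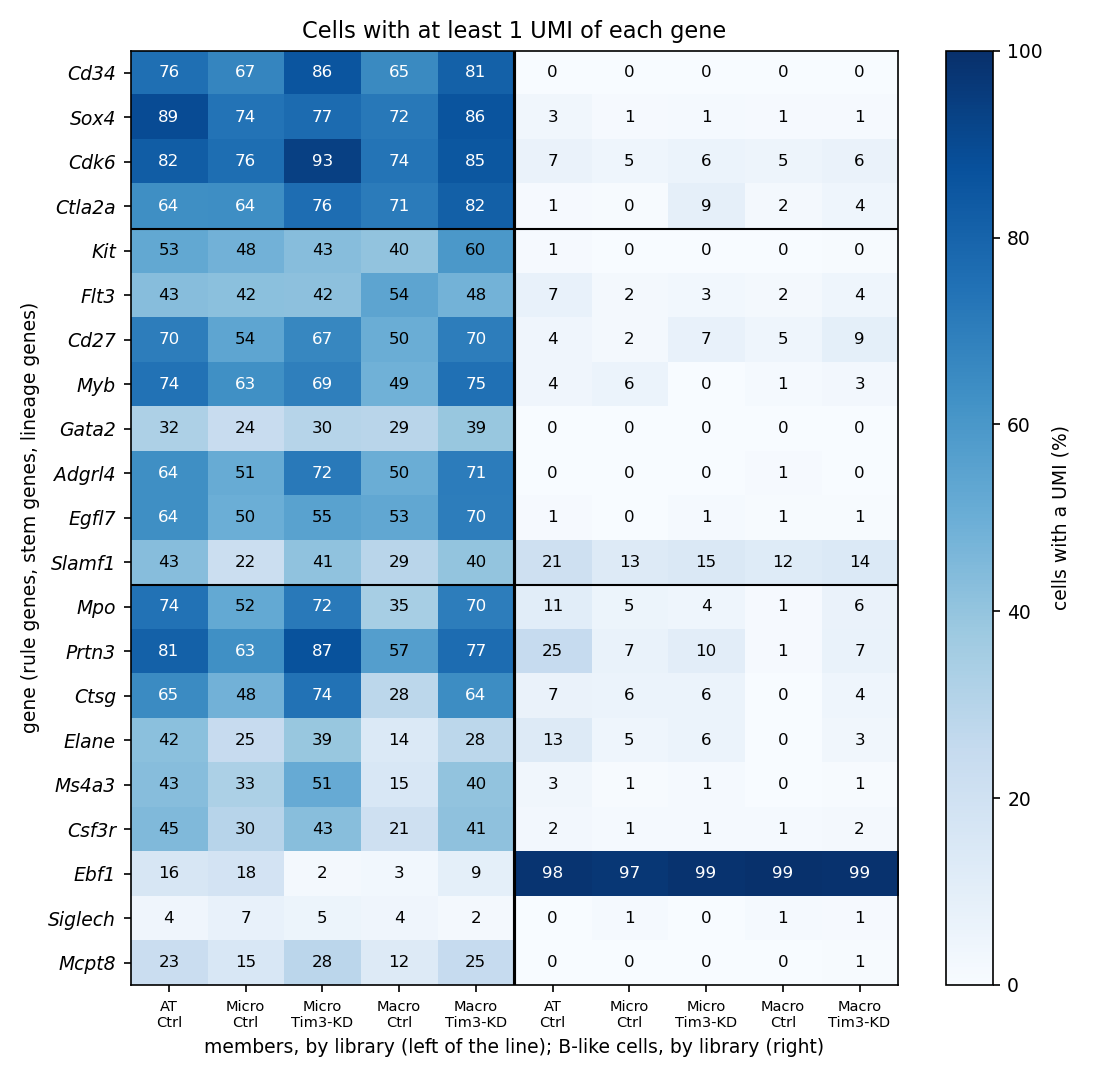
Heat map of the percent of cells with at least 1 UMI of 21 genes (rows) in the members (left columns) and the B-like cells (right columns) of the 5 libraries other than AT Tim3-KD, with colour and printed numbers in percent. For Cd34, 65.3% to 85.8% of members carried a UMI against at most 0.225% of B-like cells, whereas Slamf1 was also found in 12.2% to 20.7% of B-like cells.

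Kit and Flt3, the receptors of stem cell factor and of FLT3 ligand, were found in members of all 5 libraries. Kit had a UMI in 52.7% of members of AT Ctrl, 48.4% of Micro Ctrl, 43.2% of Micro Tim3-KD, 40.3% of Macro Ctrl and 59.5% of Macro Tim3-KD, against 0% to 0.826% of B-like cells. Flt3 had a UMI in 43.2%, 41.9%, 41.5%, 54.2% and 48.0% of members in the same order, against 1.66% to 7.44% of B-like cells in these libraries. As members were deeper than B-like cells, each cell was also thinned to 1500 UMIs, at which Kit remained in 5.16% to 10.98% and Flt3 in 4.05% to 8.39% of members, against at most 0.225% and 2.48% of B-like cells. Endothelial-like cells thinned alike had Kit in 0% to 25.7% and Flt3 in 0%, so Kit was not particular to the members.

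Regulators and receptors of the early stages were detected as well. Myb, a transcription factor of progenitor proliferation, had a UMI in 74.3% of members of AT Ctrl, 63.2% of Micro Ctrl, 69.4% of Micro Tim3-KD, 48.6% of Macro Ctrl and 75.1% of Macro Tim3-KD. Cd27, a TNF receptor family member carried by multipotent progenitors and by lymphocytes, had one in 70.3%, 53.5%, 66.7%, 50% and 69.9%. Gata2, a transcription factor of stem, mast and basophil cells, had one in 32.4%, 23.9%, 30.0%, 29.2% and 38.7%. Each of these shares, taken without thinning, was lowest in one of the Ctrl metastasis libraries. Members of Micro Ctrl and Macro Ctrl were also the shallowest of the libraries given, with medians of 17641 and 14994 UMIs. They were the most often marked by genes of another type (30.97% and 33.33%). In B-like cells of the libraries given, Myb lay between 0% and 6.03%, Cd27 between 2.28% and 8.99% and Gata2 between 0% and 0.225%. Promyelocyte-like cells, defined by granule genes, had Myb in 52.4%, 66.5% and 71.0% of cells in AT, Micro and Macro, and basophil-like cells had Gata2 in 81.3%, 94.7% and 56.4%, so neither gene was particular to the members.

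Members shared several genes with endothelial cells. Adgrl4, an adhesion receptor of vessels and of haematopoietic stem cells, had a UMI in 63.5% of members of AT Ctrl, 51.0% of Micro Ctrl, 71.6% of Micro Tim3-KD, 50% of Macro Ctrl and 70.5% of Macro Tim3-KD. In Micro its level was 126 CPM in members, 6.603 CPM in all other cells and 387 CPM in endothelial-like cells. Egfl7 behaved alike, with 63.3 CPM in members, 6.99 CPM in other cells and 526 CPM in endothelial-like cells of Micro. Both genes were thus above the rest of the library in members and higher still in endothelial-like cells, although the rule had removed cells with high Kdr and Ptprb.

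The 20 genes of highest ratio of members over all other cells in Micro, with the rule genes left out, were led by Adgrl4 and Myct1. Adgrl4 stood at 8.18, Myct1 at 6.29, Tsc22d1 at 5.46, Msi2 (an RNA-binding regulator of stem cells) at 5.25, Cd27 at 5.21, Fabp5 at 5.06, Phgdh (the first enzyme of serine synthesis) at 4.57 and Stmn1 (a regulator of microtubules in dividing cells) at 4.49. Hmgn1 stood at 4.32, Mef2c at 3.98 and Flt3 at 3.74. Mef2c and Hmgn1 were higher still in B-like cells of Micro, at 630 CPM against 243 in members for Mef2c and at 223 CPM against 150 in members for Hmgn1. Msi2 had a UMI in 72.7%, 67.8% and 73.9% of members in AT, Micro and Macro, against 27.6%, 19.8% and 22.4% of the shallower B-like cells. Of these 20 genes, 7 were also among the 20 leading genes when promyelocyte-like cells were the comparison, 5 when endothelial-like cells and 8 when basophil-like cells were.

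Among the receptors of growth factors, Csf3r (the G-CSF receptor) had a UMI in 44.6% of members of AT Ctrl, 29.7% of Micro Ctrl, 42.6% of Micro Tim3-KD, 20.8% of Macro Ctrl and 41.0% of Macro Tim3-KD. Csf1r, the receptor of M-CSF, had one in 33.8%, 26.5%, 21.9%, 31.9% and 28.3%. Il3ra, the IL-3 receptor α chain, was held by the AT and Macro matrices only and had a UMI in 45.9% of members of AT Ctrl, 30.6% of Macro Ctrl and 45.1% of Macro Tim3-KD. B-like cells had a UMI of each of these 3 receptors in at most 4.41%.

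Of the homing and adhesion genes, Ccr2, the receptor by which monocytes and some progenitors leave the marrow, had a UMI in 33.8% of members of AT Ctrl, 29.0% of Micro Ctrl, 33.9% of Micro Tim3-KD, 27.8% of Macro Ctrl and 24.3% of Macro Tim3-KD, against at most 4.49% of B-like cells. Itga6, an integrin of stem and progenitor cells, had one in 32.4%, 32.3%, 38.3%, 26.4% and 39.3%, against 1.47% to 5.84% of the shallower B-like cells. Cxcr4, the receptor that holds progenitors in the marrow, was held by the Micro and Macro matrices only. It had a UMI in 32.9% of members of Micro Ctrl, 35.0% of Micro Tim3-KD, 38.9% of Macro Ctrl and 54.9% of Macro Tim3-KD. The B-like cells of the same libraries had Cxcr4 in 40.6%, 48.5%, 50.6% and 70.8%, so the members did not stand above them for this gene.

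Comparing Tim3-KD with Ctrl addressed whether the immune cells around the metastasis differed when the tumour cells carried less TIM3. Members were 74 of 1803 cells in AT Ctrl (4.10%, exact Clopper-Pearson interval 3.24% to 5.13%), 3 of 542 in AT Tim3-KD (0.554%, 0.114% to 1.61%), 155 of 5106 in Micro Ctrl (3.04%, 2.58% to 3.54%), 183 of 5142 in Micro Tim3-KD (3.56%, 3.07% to 4.10%), 72 of 4913 in Macro Ctrl (1.47%, 1.15% to 1.84%) and 173 of 5502 in Macro Tim3-KD (3.14%, 2.6991% to 3.64%). The highest share was that of AT Ctrl, the lowest that of AT Tim3-KD, and Macro Ctrl lay below both Micro libraries and Macro Tim3-KD. A share cannot tell more progenitors from fewer cells of other types.

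Tim3-KD minus Ctrl was -3.55 points in AT (Newcombe interval -4.63 to -2.21), 0.523 points in Micro (-0.170 to 1.22) and 1.68 points in Macro (1.11 to 2.26). The Micro difference was within counting error, while those of AT and Macro were not and had opposite signs. Between the Ctrl libraries, Micro minus AT was -1.07 points (-2.18 to -0.103) and Macro minus Micro was -1.57 points (-2.16 to -0.994).

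With a Cd34 UMI required, 56 cells remained in AT Ctrl (3.11%, 2.36% to 4.02%), 0 in AT Tim3-KD (which, at a limit of 3 counts, allows a share of up to 0.554%), 104 in Micro Ctrl (2.04%, 1.67% to 2.46%), 157 in Micro Tim3-KD (3.05%, 2.60% to 3.56%), 47 in Macro Ctrl (0.957%, 0.704% to 1.27%) and 140 in Macro Tim3-KD (2.55%, 2.15% to 3.00%). In this set the Micro difference rose to 1.02 points (0.407 to 1.63) and so lay outside counting error, as did those of AT (-3.11 points, -4.01 to -2.11) and of Macro (1.59 points, 1.09 to 2.10). The share of members in Micro thus depended on whether cells without a Cd34 UMI were counted.

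Granulocyte precursors outside the member set differed between the libraries as well. Elane, the neutrophil elastase gene, had a UMI in 20.2% of all other cells of AT Ctrl, in 0 of the 539 other cells of AT Tim3-KD (which, at the same limit, allows up to 0.557% with a UMI), and in 10.9% of those of Micro Ctrl, 28.5% of Micro Tim3-KD, 2.44% of Macro Ctrl and 9.27% of Macro Tim3-KD. Its level in these cells was 770, 0, 1169, 2552, 370 and 1208 CPM. Promyelocyte-like cells, defined by a mean score of Elane, Mpo, Prtn3 and Ctsg above 1.5, numbered 84 in AT Ctrl, 62 in Micro Ctrl, 562 in Micro Tim3-KD, 48 in Macro Ctrl and 200 in Macro Tim3-KD. The part of this difference between libraries in the share of members was not tested.

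**Figure D2:**
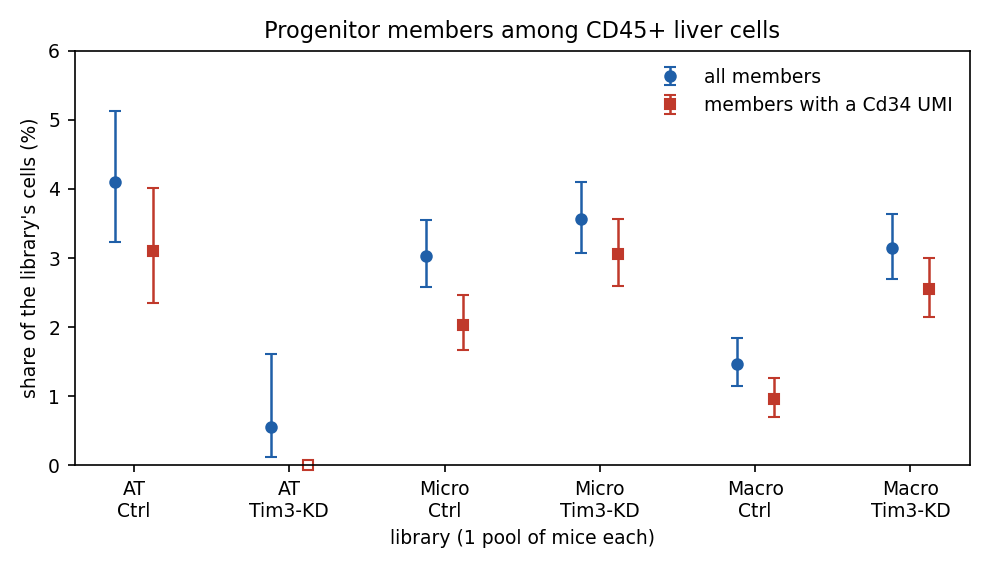
Share of cells (percent) that were members in each of the 6 libraries, with all members as circles and members with a Cd34 UMI as squares, and bars for the exact 95% binomial intervals (counting error only). AT Tim3-KD held 0.554% members and none with a Cd34 UMI (open square), and in Macro the Tim3-KD library (3.14%) lay above Ctrl (1.47%).

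To describe how the members varied among themselves, each was given the lineage branch whose gene list had the most UMIs in the cell, with at least 3 UMIs and no tie. The granulocyte-monocyte branch (Mpo, Elane, Prtn3, Ctsg, Ms4a3, Cebpa, Irf8 and others) took 63.5% of members of AT Ctrl, 47.7% of Micro Ctrl, 65.6% of Micro Tim3-KD, 44.4% of Macro Ctrl and 66.5% of Macro Tim3-KD. The dendritic list took 16.2%, 34.2%, 25.7%, 50% and 22.0%, and the lymphoid list 14.9%, 12.3%, 0%, 2.78% and 8.09%. Basophil and erythroid-megakaryocyte branches took at most 5.16% and 2.19%. B-like cells were placed in the granulocyte-monocyte branch in at most 1.47%, but in the dendritic branch in 81.8% to 94.1%, since that list held Cst3 and 3 class II genes that B cells express as well. They were placed in the lymphoid branch in 4.41% to 17.4%. The dendritic and lymphoid shares of the members with all genes therefore had no clean background.

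Without 11 broadly expressed genes in the lists (Cst3, Bst2, Nkg7, Ighm, 4 haemoglobin and 3 class II genes, an alternative chosen after the data had been seen), the granulocyte-monocyte branch took 66.2% of members of AT Ctrl, 50.3% of Micro Ctrl, 73.8% of Micro Tim3-KD, 50% of Macro Ctrl and 72.8% of Macro Tim3-KD. The dendritic branch fell to 10.8%, 20.0%, 14.2%, 19.4% and 6.94%, against at most 3.09% of B-like cells. The lymphoid branch took 16.2%, 14.2%, 1.09%, 5.56% and 9.83% of members, against 88.2% to 95.9% of B-like cells. The erythroid-megakaryocyte branch took 2.703%, 5.81%, 4.37%, 8.33% and 2.89%, against at most 0.163% of B-like cells, and the basophil branch took at most 5.81%. With either version, the granulocyte-monocyte branch was the largest in each of these libraries except Macro Ctrl with all genes, where the dendritic list took more cells.

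In both metastasis stages the granulocyte-monocyte share was higher in Tim3-KD than in Ctrl, by 17.8 points in Micro (7.24 to 27.9) and 22.0 points in Macro (8.42 to 34.8). In members with a Cd34 UMI the differences were 14.3 points (2.69 to 25.7) and 28.9 points (13.2 to 43.9). Without the 11 broadly expressed genes they were 23.4 (13.1 to 33.2) and 22.8 points (9.54 to 35.6) in all members, and 12.0 (1.56 to 22.7) and 27.6 points (13.2 to 42.5) in those with a Cd34 UMI.

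The dendritic share, Tim3-KD minus Ctrl, was -28.0 points in Macro with all genes of the list (-40.6 to -14.9) and -12.5 points without the 11 genes (-23.5 to -3.61). Among members with a Cd34 UMI these differences were -28.9 (-43.9 to -13.4) and -15.6 points (-29.5 to -4.94). In Micro the difference was -8.51 points with all genes (-18.2 to 1.24), within counting error, and -12.3 points with a Cd34 UMI required (-23.5 to -1.27), outside it. Without the 11 genes it was within counting error in both sets, at -5.79 points (-14.0 to 2.22) and -4.24 points (-13.5 to 4.18). The Macro difference thus kept its sign in each version while its size changed more than 1.5-fold, and the Micro call depended on the cells and genes used. The lymphoid share differed by -12.3 points in Micro (-18.4 to -7.52) and by 5.32 points in Macro (-2.20 to 10.7). In members with a Cd34 UMI the lymphoid differences were -1.92 (-6.74 to 0.842) and 0 points (-7.56 to 2.67).

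**Figure D3:**
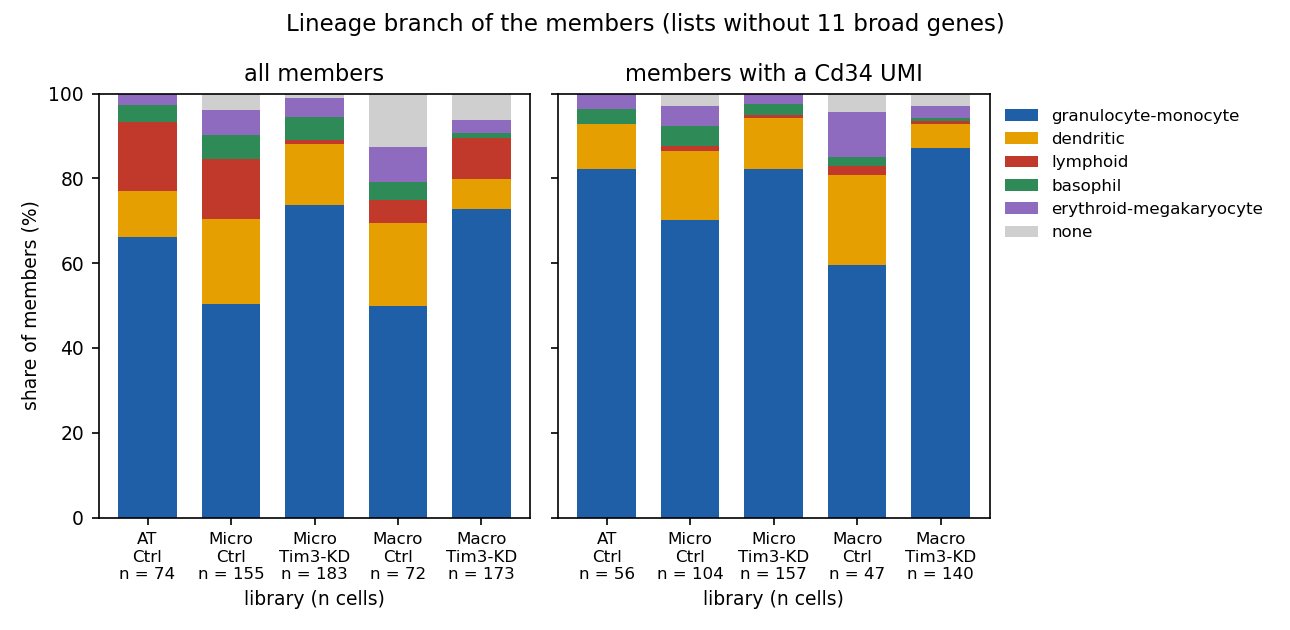
Stacked shares (percent of members) of the lineage branches in each library, with the 11 broadly expressed genes left out of the lists, for all members and for members with a Cd34 UMI. The granulocyte-monocyte part was 73.8% in Micro Tim3-KD and 72.8% in Macro Tim3-KD against 50.3% and 50% in the Ctrl libraries, and the lymphoid part nearly vanished once a Cd34 UMI was required.

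The branches differed in the rule genes. Genes of the lists that assigned the cells (Ebf1 for lymphoid, Flt3 for dendritic, Gata2 and Mcpt8 for basophil) were fixed in part by the assignment and are given as descriptions. In the granulocyte-monocyte branch (lists without the 11 genes) Cd34 had a UMI in 93.9% of 49 AT, 94.8% of 213 Micro and 92.6% of 162 Macro members, and Adgrl4, Myb and Cdk6 were each found in at least 79.6% of them. In the lymphoid branch Cd34 had a UMI in 0%, 8.33% and 9.52% of members in AT, Micro and Macro, and Kit in at most 4.76%, but Sox4 in 100%, 95.8% and 95.2% and Ebf1, a transcription factor of B lineage commitment, in 100%, 95.8% and 71.4%. Sox4 was thus the rule gene that these cells had in common. They were far shallower, with medians of 5183.5, 2999 and 4306 UMIs in AT, Micro and Macro. Granulocyte-monocyte members had 44634, 26569 and 29922 UMIs, so the branches differed in depth as well as in genes. By level, Cd34 stood at 0, 62.6 and 84.3 CPM in the lymphoid branch. In the granulocyte-monocyte branch it stood at 299, 253 and 311 CPM. The dendritic branch stood between in Micro and Macro, with Cd34 in 63.2% and 69.2% and Flt3, the receptor that dendritic progenitors depend on, in 68.4% and 80.8%. Its members there carried Kit in 21.1% and 38.5%. In AT this branch held 8 members of AT Ctrl and the 3 members of AT Tim3-KD, so its shares are not given.

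The 19 members of the basophil branch in Micro carried Gata2 and Ikzf2 in 94.7% each, Kit in 68.4%, Mcpt8 (a basophil granule protease) in 73.7% and Cd34 in 47.4%. Mpo had a UMI in 89.5% of them and Elane in 26.3%, with no thinning, against 4.41% to 5.38% (Mpo) and 4.56% to 5.88% (Elane) of the shallower B-like cells of Micro. B-like cells fell in the basophil branch in at most 0.225%.

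Pairs of genes were used to count cells with a defined programme (the pairs were chosen after the values had been seen). Elane with Ms4a3, genes of promyelocytes, were both present in 21 members of AT Ctrl (28.4%), 30 of Micro Ctrl (19.4%), 59 of Micro Tim3-KD (32.2%), 6 of Macro Ctrl (8.33%) and 36 of Macro Tim3-KD (20.8%), and of these 20, 29, 58, 6 and 36 cells had a Cd34 UMI. Ebf1 with Vpreb3, genes of immature B cells, were present in 12, 22, 1, 2 and 14 members, of which 0, 2, 0, 0 and 1 had a Cd34 UMI, and in 38.2% to 53.5% of the B-like cells of these libraries. Csf1r with F13a1, a monocyte pair, were present in 13, 12, 21, 5 and 15 members, each with a Cd34 UMI. The monocyte pair thus lay within the cells with a Cd34 UMI and the promyelocyte pair nearly so, and the B lineage pair lay mostly outside them.

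Cycling was described by a list of 10 G2/M genes held by the 3 matrices, after each cell was thinned to 1500 UMIs. A UMI of the list remained in 48.6% of members of AT Ctrl (36.9% to 60.6%), 38.7% of Micro Ctrl (31.0% to 46.9%), 50.3% of Micro Tim3-KD (42.8% to 57.7%), 22.2% of Macro Ctrl (13.3% to 33.6%) and 41.6% of Macro Tim3-KD (34.2% to 49.3%). B-like cells of these libraries had one in 2.95% to 5.54%, and promyelocyte-like cells in 70.2% to 87.5%. Members thus lay above B-like and below promyelocyte-like cells in each library. Unthinned, the shares were 81.1%, 63.9%, 79.2%, 50% and 72.8%.

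Tim3-KD minus Ctrl in this share was 11.6 points in Micro (0.927 to 21.8) and 19.4 points in Macro (6.42 to 30.4). In members with a Cd34 UMI the shares were 54.8% and 51.6% in Micro Ctrl and Tim3-KD, a difference of -3.22 points (-15.3 to 9.06), and 34.0% and 50.7% in Macro, a difference of 16.7 points (0.205 to 31.1). Thinned to 5000 UMIs instead, with shallower cells left out, the shares in Micro Ctrl and Tim3-KD were 60.7% and 70.7% of all members and 69.9% and 74.8% of those with a Cd34 UMI, and in Macro 39.3% and 63.4%, and 40.4% and 62.0%. The Micro difference with a Cd34 UMI thus turned its sign at 1500 UMIs and not at 5000, and the Macro difference kept its sign in each version. The 3 S phase genes (Dut, Mcm3, Rrm2), thinned alike, were found in 43.2% of members of AT Ctrl, 36.1% of Micro Ctrl, 41.0% of Micro Tim3-KD, 22.2% of Macro Ctrl and 43.9% of Macro Tim3-KD. Among members with a Cd34 UMI they were found in 62.5%, 47.1%, 43.9%, 27.7% and 50% in the same order, and the counting intervals of the 2 Micro libraries overlapped in both sets. At 5000 UMIs the S phase shares in Micro Ctrl and Tim3-KD were 73.8% and 67.8% of all members and 77.7% and 74.8% of those with a Cd34 UMI, so the order of these libraries depended on the depth and the cells used.

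**Figure D4:**
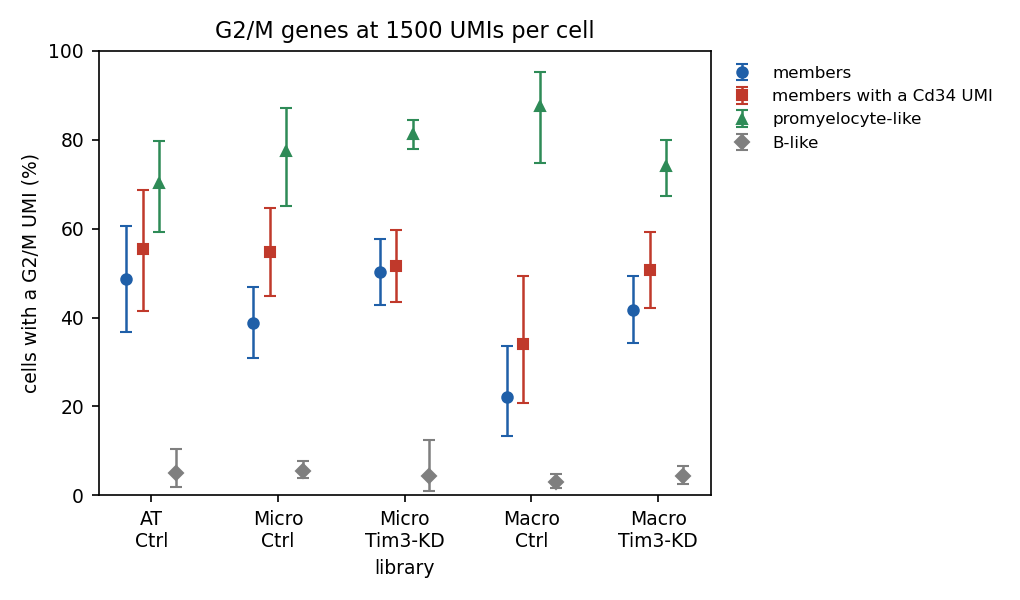
Share of cells (percent) with a UMI of 10 G2/M genes after thinning each cell to 1500 UMIs, with exact 95% binomial intervals, for members, members with a Cd34 UMI, promyelocyte-like and B-like cells of the 5 libraries. Macro Ctrl had the lowest share among members (22.2%), and in Micro the members with a Cd34 UMI stood at 54.8% in Ctrl and 51.6% in Tim3-KD.

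Gene levels in members were compared between libraries as the ratio of CPM over the summed UMIs of the cells, with 0.5 added to each sum, for genes with at least 30 UMIs over both groups. A gene was past the fold when its ratio was at least 2 or at most 0.5 and its counting interval excluded 1. Micro Ctrl entered 3 of the 4 comparisons, so these are given side by side and not related to each other.

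In Micro, Tim3-KD over Ctrl, no tested gene of the stem and multipotent list passed the fold. With Cd34, a rule gene, left out of that list, it was none of 12, where 34 of 2141 genes (1.59%) were past the fold upward and 175 (8.17%) downward among all members. With a Cd34 UMI required it was 47 of 2002 (2.35%) upward and 103 (5.14%) downward, and again none of the 12. The median log2 ratio of all genes was -0.156 in all members and -0.0955 in those with a Cd34 UMI, so small negative ratios were the rule. Of the 209 genes (9.76%) past the fold among all members, 133 were also past it in all other cells.

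Kit stood at 54.1 CPM in members of Micro Ctrl and 33.4 CPM in Micro Tim3-KD, a ratio of 0.618 (0.493 to 0.773). Slamf1 (CD150, carried by stem cells and by lymphocytes) stood at 23.4 and 42.9 CPM, a ratio of 1.82 (1.40 to 2.42). These 2 genes moved in opposite directions beyond counting error, though neither reached the fold. Among the granule genes, Mpo stood at 1528 and 1698 CPM (ratio 1.11, 1.07 to 1.15) and Elane at 303 and 577 CPM (1.90, 1.77 to 2.05). All other cells had an Elane ratio of 2.18, so the rest of the library differed in the same direction.

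The downward genes among all members included those of lymphocytes. Past the fold downward were 9 of 9 tested genes of the B cell list, 8 of 9 of the NK list and 6 of 9 of the lymphoid progenitor list, where 8.17% of all genes were. The 6 lowest ratios were those of Gzma, Prf1 and Ncr1 (cytotoxic granules and an NK receptor), Trbc1 (T cell receptor), Fcmr and Pou2af1 (B cell genes), each with no UMI in Tim3-KD members and 907, 60, 46, 57, 45 and 43 UMIs in Ctrl. In all other cells the ratios of Ncr1, Fcmr and Pou2af1 were also low, at 0.174, 0.0216 and 0.0692, while those of Gzma, Prf1 and Trbc1 were 0.402, 0.375 and 0.776.

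Cells marked by another type, by genes that include Gzma, Ncr1 and Fcmr themselves, were 48 of 155 members in Micro Ctrl and 14 of 183 in Micro Tim3-KD. Without them Gzma and Ncr1 could not be compared, the counting intervals of Prf1 (0.129, 0 to 3.43), Trbc1 (0.215, 0 to 25.1) and Fcmr (0.0921, 0 to 1.56) held 1, and Pou2af1 stayed past the fold (0.0184, 0 to 0.156). In members with a Cd34 UMI, 0 of 4 lymphoid progenitor genes and 1 of 2 B cell genes were past the fold downward, where 5.14% of all genes were. Of the NK list only Ccl5, a chemokine gene, was tested in these cells, and it was past the fold upward (1.43 on the log2 scale), whereas among all members it was past it downward.

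Some interferon-stimulated genes were higher in Tim3-KD members of Micro. Of 13 tested, 5 were past the fold upward (Ifit1, Ifit2, Rsad2, Cxcl10 and Iigp1) and 1 downward, where 1.59% of all genes were upward and 8.17% downward, with a list median of 0.517 on the log2 scale against -0.156 for all genes. In members with a Cd34 UMI it was 4 of 11 (Ifit1, Ifit2, Rsad2 and Cxcl10), where 2.35% of all genes were upward, with a list median of 0.167. Cxcl10, an interferon-induced chemokine, had 58.0 CPM in members of Ctrl and 145 CPM in those of Tim3-KD (2.50-fold, 2.13 to 2.96), with a UMI in 19.4% and 32.2% of the cells, and at a ratio of 0.985 in all other cells. Rsad2, an antiviral enzyme, stood at 6.61 and 24.7 CPM (3.67, 2.34 to 6.20), and the highest cell held 20.6% of its Tim3-KD UMIs. Oasl1, an interferon-induced regulator that was not on the list, stood at 15.6 and 45.4 CPM (2.89, 2.13 to 4.03), at 14.7 and 44.9 CPM with a Cd34 UMI required, and at a ratio of 0.885 in all other cells. In AT Ctrl, which shares the day, Oasl1 stood at 38.1 CPM and Cxcl10 at 85.5 CPM, so for both genes the Ctrl library of Micro lay below AT Ctrl as well. In Macro, Tim3-KD over Ctrl, the same list went the other way among all members, with 0 of 9 tested genes past the fold upward and 3 downward, Ifit2 and Rsad2 among them (3.94% of all genes upward and 12.7% downward), and a median of -0.838 against -0.0869 for all genes. In the members with a Cd34 UMI, 1 of 8 was upward in Macro (Cxcl10) and 2 downward (5.4% and 6.03% of all genes), with a median of -0.149 against -0.01.

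Among members with a Cd34 UMI in Micro, the genes of most change beyond that of the rest of the library (a UMI in at least 20% of either group, a ratio of 0.5 to 2 in all other cells, a rule chosen after the values had been seen) included the following. F13a1, coagulation factor XIII of the monocyte lineage, went from 27.4 CPM (Ctrl) to 72.2 CPM (Tim3-KD), with a ratio of 2.63 (2.06 to 3.41), Slc28a2 at a ratio of 2.71 and Bbc3 at 2.41. Downward, Mcpt8 stood at 198 and 49.8 CPM (0.252, 0.214 to 0.296), and 47.4% of its Ctrl UMIs lay in 1 cell. Rgs1 stood at 0.290 and Osm at 83.1 and 35.2 CPM (0.424, 0.342 to 0.523). The basophil list as a whole had 6 of 8 genes past the fold downward in these cells (Cpa3, Mcpt8, Ms4a2, Fcer1a, Prss34 and Cyp11a1), where 5.14% of all genes were. Among all members it had 0 of 8, where 8.17% of all genes were. Without the 11 broadly expressed genes, the basophil branch held 9 members of Micro Ctrl and 10 of Micro Tim3-KD, of which 5 and 4 had a Cd34 UMI. Ly6c2 was also past the fold, but the deposited features for Ly6c1 and Ly6c2 were joined into one for part of the UMIs of Tim3-KD and not of Ctrl, so its ratio is uncertain.

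In Macro, Tim3-KD over Ctrl, none of 12 tested stem and multipotent genes passed the fold (Cd34 left out, and in both sets of cells), where 70 of 1776 genes (3.94%) were past the fold upward and 226 (12.7%) downward among all members, and 86 of 1593 (5.4%) and 96 (6.03%) with a Cd34 UMI required. Kit stood at 49.7 CPM in members of Ctrl and 55.1 CPM in those of Tim3-KD (1.10, 0.848 to 1.46) and Myb at 113 and 156 CPM (1.38, 1.17 to 1.66). The rule gene Ctla2a, given with no call, stood at 1578 and 1073 CPM. Of the 296 genes (16.7%) past the fold among all members, 47 were also past it in all other cells.

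Osm, the gene of oncostatin M (an IL-6 family cytokine, chromosome 11, 4236420 to 4241026, plus strand), showed the second highest ratio among all members. Its level in members was 29.2 CPM in AT Ctrl, 78.1 in Micro Ctrl, 36.9 in Micro Tim3-KD, 6.39 in Macro Ctrl and 84.3 in Macro Tim3-KD, with a UMI in 45.9%, 32.9%, 40.4%, 12.5% and 46.2% of members. Macro Ctrl stood apart from the other 4 libraries. All other cells held Osm at 64.9, 90.3, 59.5, 37.6 and 92.0 CPM, so the gene was not higher in members. Tim3-KD over Ctrl in Macro was 12.5 (6.87 to 29.0, 401 against 9 UMIs), and 12.6 (6.73 to 31.2) with a Cd34 UMI required. In all other cells the ratio was 2.45. In Micro the same contrast was 0.473 (0.385 to 0.577), the opposite direction.

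Stfa2, a stefin of the neutrophil lineage, had 39 UMIs in Tim3-KD members of Macro and 0 in Ctrl. Nrg1 had 71 against 3, G0s2 70 against 3 and Stfa2l1 63 against 3, and 57.1% of the G0s2 UMIs lay in 1 cell. Without the cells marked by another type, of which Stfa2l1 is one of the marking genes, the intervals of Stfa2 (3.85, 0.348 upward), G0s2 (1.48, 0.395 to 16.3) and Stfa2l1 (2.66, 0.577 to 163) held 1, while Nrg1 stayed past the fold (5.70, 2.17 to 32.8). Bcl3, a regulator of NF-κB, went from 3.28 CPM (Ctrl) to 15.9 CPM (Tim3-KD) in members with a Cd34 UMI, a ratio of 4.35 (1.82 to 18.3), with a UMI in 8.51% and 33.6% of the cells. In the other libraries Bcl3 lay between 14.6 and 17.4 CPM in such cells, so here too Macro Ctrl was the library that stood apart.

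Some proliferation genes were higher in Tim3-KD members of Macro. Of 19 tested G2/M genes, 4 were past the fold upward (Mki67, Cenpe, Hmmr and Kif20b) and none downward, where 3.94% of all genes were upward and 12.7% downward, with a list median of 0.626 on the log2 scale against -0.0869 for all genes. With a Cd34 UMI required it was 3 of 19 (Mki67, Hmmr and Kif20b), where 5.4% of all genes were upward, with a median of 0.521. Mki67 stood at 173 CPM in members of AT Ctrl, 135 in Micro Ctrl, 152 in Micro Tim3-KD, 64.6 in Macro Ctrl and 153 in Macro Tim3-KD. Its Macro ratio was 2.36 (1.91 to 2.98) in members, 2.09 (1.69 to 2.65) with a Cd34 UMI required, and 1.90 in all other cells. Mcm3 and Rrm2, genes of DNA replication and of deoxynucleotide synthesis, had ratios of 2.05 (1.68 to 2.54) and 2.17 (1.65 to 2.93).

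Class II genes were lower in Tim3-KD members of Macro. H2-Aa, the α chain of I-A, stood at 46.3 CPM in members of AT Ctrl, 579 in Micro Ctrl, 378 in Micro Tim3-KD, 732 in Macro Ctrl and 114 in Macro Tim3-KD, with a UMI in 33.8%, 41.3%, 30.6%, 48.6% and 21.4% of them. Its Macro ratio was 0.155 (0.140 to 0.172) in all members and 0.141 (0.125 to 0.159) with a Cd34 UMI required, against 0.536 in all other cells. In the latter set 32.0% of the Ctrl and 36.4% of the Tim3-KD UMIs lay in 1 cell each, so the level rested on few cells. H2-Ab1 stood at 0.196 (0.174 to 0.220). Of 12 tested genes of the dendritic list 5 were past the fold downward (Ccr9, Cst3, H2-Aa, H2-Ab1 and H2-Eb1) and 1 upward (Cox6a2, a plasmacytoid dendritic gene, at 3.98, 1.65 to 16.8), where 12.7% of all genes were downward and 3.94% upward. In the set with a Cd34 UMI 4 of 10 were downward and again Cox6a2 upward, where it was 6.03% and 5.4% of all genes. B-like cells, which carry class II genes, were 542 in Macro Ctrl and 445 in Macro Tim3-KD. How far free RNA of such cells entered these levels was not tested.

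Among all members of Macro, markers of Kupffer and NK cells were also lower in Tim3-KD. Of the Kupffer cell list 9 of 9 tested genes and of the NK list 10 of 10 were past the fold downward among all members, where 12.7% of all genes were. With a Cd34 UMI required, no Kupffer gene reached 30 UMIs and 1 of 1 tested NK genes was past the fold downward, where 6.03% of all genes were. Cells marked by Kupffer genes were 7 of 72 members in Macro Ctrl and 10 of 173 in Macro Tim3-KD, and NK-marked cells 10 and 6. Among members with a Cd34 UMI the order for Kupffer genes was the opposite, with 0 of 47 and 7 of 140 cells marked. NK-marked cells were 0 in both libraries of that set. Erdr1 had the lowest ratio (0.00800) but was nearly as low in all other cells (0.0161), and the Chil3 UMIs that gave a ratio of 0.0381 came in Ctrl from 1 cell.

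**Figure D5:**
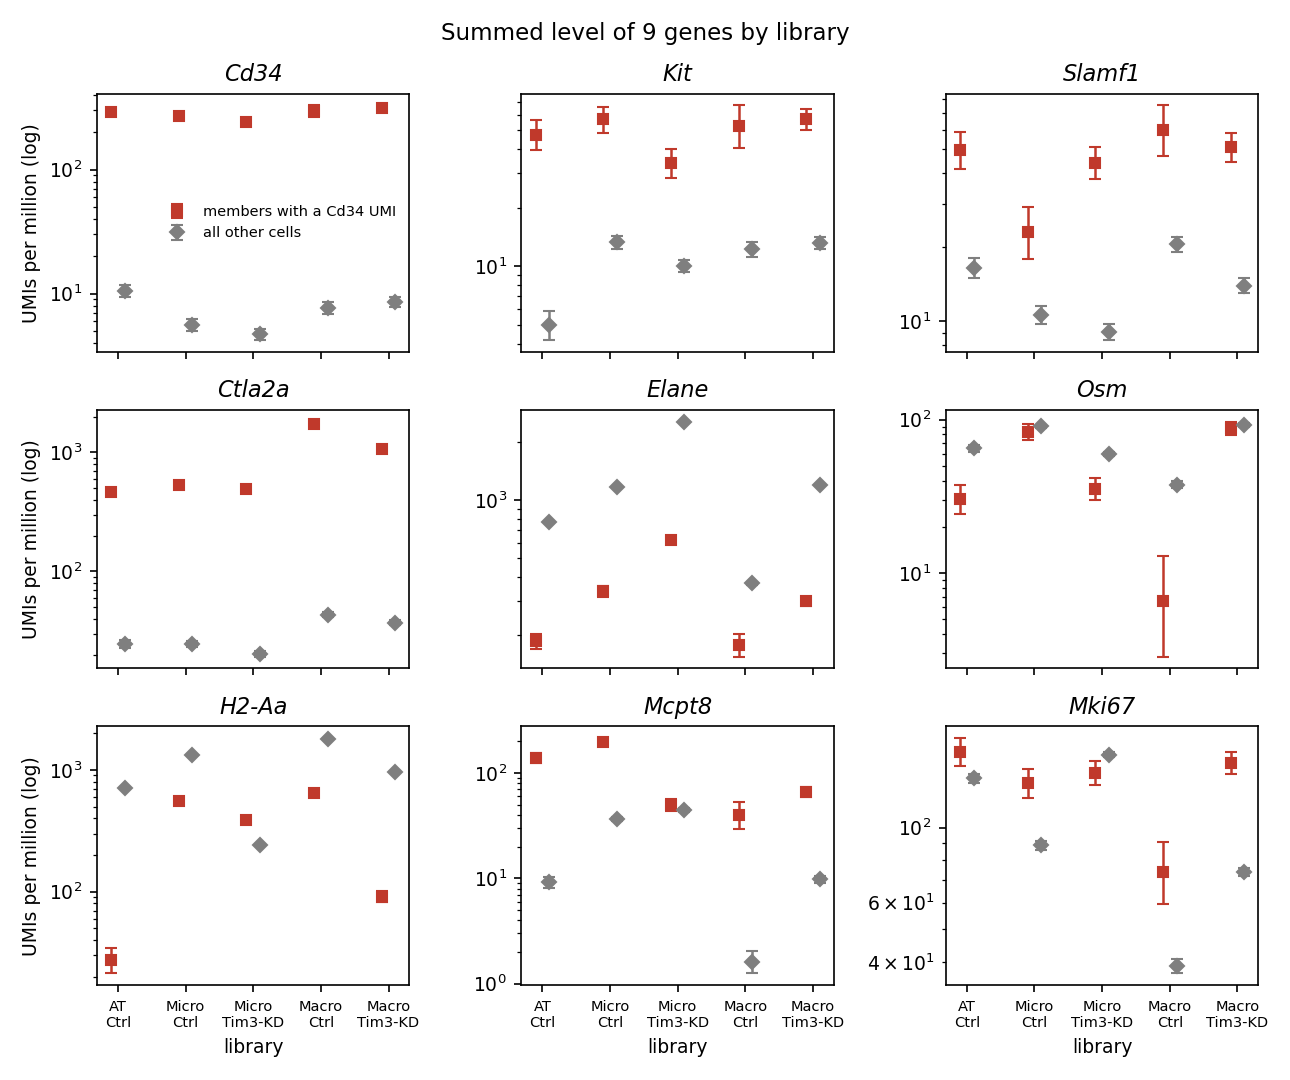
Levels (CPM, logarithmic axis) of 9 genes in the members with a Cd34 UMI and in all other cells of the 5 libraries, with exact 95% Poisson intervals (counting error only). In members Cd34 lay between 242 and 313 CPM, Osm stood at 6.56 CPM in Macro Ctrl and H2-Aa ranged from 27.3 CPM in AT Ctrl to 645 CPM in Macro Ctrl.

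Micro Ctrl over AT Ctrl compared micrometastasis with adjacent tissue at the same day. Of 1719 genes, 180 (10.5%) were past the fold upward and 15 (0.873%) downward, 11.3% in either direction, and the median log2 ratio was 0.239. With a Cd34 UMI required it was 122 of 1558 (7.83%) and 23 (1.48%). The rule gene Cd34, given with no call, stood at 275 CPM in AT Ctrl and 244 in Micro Ctrl. Of the stem and multipotent list without Cd34, Slamf1 alone among 11 was past the fold, at 60.2 and 23.4 CPM (0.390, 0.294 to 0.512).

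The dendritic list had 8 of 13 tested genes past the fold upward in Micro Ctrl members, among them Siglech, Id2, Cst3, H2-Aa, H2-Ab1 and H2-Eb1, with a list median of 1.5 on the log2 scale against 0.239 for all genes. Other cell types' genes were past the fold upward in the same comparison, namely 8 of 9 tested of the NK list, 3 of 3 of the Kupffer cell list, 4 of 10 of the B cell list and 4 of 10 of the mature neutrophil list. Of all genes, 10.5% were upward. With a Cd34 UMI required it was 5 of 11 of the dendritic list, with a median of 0.632 against 0.181, 0 of 2 of the NK list (with 2 downward), 2 of 3 of the B cell list and 2 of 8 of the mature neutrophil list, and no Kupffer gene was tested. In that set 7.83% of all genes were upward and 1.48% downward. H2-Aa in the latter cells stood at 27.3 CPM in AT Ctrl and 558 CPM in Micro Ctrl (20.3, 16.2 to 26.2), against a ratio of 1.87 in all other cells. The share of these cells with a UMI was 33.9% and 37.5%, so the level differed far more than the number of cells with a UMI. Osm was higher in Micro Ctrl members (2.66, 2.08 to 3.47) and Oasl1 lower (0.412, 0.288 to 0.576), the latter against 1.124 in all other cells. Of the genes of highest ratio, C1qa, Klk1, Klra3 and Cd36 had no UMI in AT Ctrl members, and C1qa and Clec4f are macrophage and Kupffer cell genes.

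Macro Ctrl over Micro Ctrl compared day 12 with day 3. Of 1254 genes, 140 (11.2%) were past the fold upward and 71 (5.66%) downward, 16.8% in either direction, and with a Cd34 UMI required 88 of 1038 (8.48%) and 57 (5.49%). Of the stem and multipotent list without Cd34, Slamf1 alone among 10 tested genes was past the fold, at 23.4 CPM in Micro Ctrl and 56.8 CPM in Macro Ctrl members (2.42, 1.75 to 3.36), and it passed with a Cd34 UMI required (2.60). The rule gene Ctla2a stood at 524 and 1578 CPM, values that the rule used, with a scale of its own in each matrix, and that carry no call.

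Of the granulocyte-monocyte list 3 of 11 tested genes were past the fold downward in Macro Ctrl members (Ms4a3, Cebpe and Ly6c2) and 1 upward (Csf1r), with a list median of -0.75 on the log2 scale against 0.136 for all genes. In this comparison 5.66% of all genes were downward and 11.2% upward, and 5.49% and 8.48% with a Cd34 UMI required. The ratio of Ly6c2 is uncertain here too, since the feature joined with Ly6c1 held 21 UMIs of members in Macro Ctrl and 0 in Micro Ctrl. Among members with a Cd34 UMI, Cebpe and Ly6c2 were past the fold downward and Ms4a3, at 0.518 (0.439 to 0.606), was not. Mpo stood at 1528 CPM in Micro Ctrl and 887 CPM in Macro Ctrl members (0.581, 0.545 to 0.618), Prtn3 at 1704 and 1013 CPM (0.595, 0.560 to 0.630) neither past the fold, and Ms4a3 at a ratio of 0.482 (0.409 to 0.564). Of the erythroid-megakaryocyte list 2 of 4 tested genes were past the fold upward (Car2 and Pf4), and 1 of 3 (Car2) with a Cd34 UMI required. The ratio of Mpo in all other cells was 0.425. Basophil genes were past the fold downward in 4 of 5 tested (Mcpt8, Hdc, Prss34 and Cyp11a1), and 3 of 12 G2/M genes were (Mki67, Cenpe and Prc1), while with a Cd34 UMI required no G2/M gene was. Osm was lower in Macro Ctrl (0.0862, 0.0370 to 0.158), as it was against Macro Tim3-KD above. Among the genes of highest ratio were Mertk, Timd4, C6, Folr2 and Fcna, genes of macrophages and Kupffer cells, and 9 of 9 tested Kupffer genes were past the fold upward among all members, as were 5 of 12 of the NK list. Past the fold downward were 9 of 9 tested genes of the B cell list and 6 of 9 of the lymphoid progenitor list. Among members with a Cd34 UMI no Kupffer gene was tested, 1 of 2 NK genes was upward and 1 downward, and 2 of 3 B cell genes and 0 of 4 lymphoid progenitor genes were downward.

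Havcr2, which encodes TIM3 and lies on chromosome 11 (46454935 to 46481255, plus strand), was seldom detected in members. It had 6 UMIs in 74 members of AT Ctrl, 30 in Micro Ctrl, 29 in Micro Tim3-KD, 11 in Macro Ctrl and 21 in Macro Tim3-KD, and a UMI in 8.11%, 12.3%, 8.74%, 11.1% and 8.67% of members, against 0.489% to 2.94% of B-like cells. Tim3-KD over Ctrl was 0.742 (0.429 to 1.28) in Micro and 0.553 (0.260 to 1.30) in Macro, both within counting error. Since the shRNA was in the tumour cells, these levels are no check of the knock-down.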

How the data were processed

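The submitters' processing notes name Trim Galore 0.4.3, STAR 2.7.7a and the GRCm38 build. The authors counted exonic and intronic reads, kept deep cells with a low mitochondrial share, removed doublets called by Scrublet before deposit, and kept highly variable genes. The deposited values of each of the 3 matrices are scores, that is log-normalised counts with depth regressed out, scaled to unit variance and capped at 10. They were inverted to UMI counts and cell totals here, and 99.9972% to 99.9999% of detected values came out whole within 0.05, while 0.144% to 0.160% stood at the cap and are lower bounds. On simulated data 99.999% of UMI values were recovered. The matrices share 1642 genes, and a gene may be held by some of them only.

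Members and lists were chosen with earlier results of these data known. Comparison cells (B-like, promyelocyte-like, endothelial-like, basophil-like) had a mean score above 1.5 over 4 markers each and were not members. No clustering was made. Summed UMIs of members were compared as ratios with exact binomial intervals, with 0.5 added to each sum, and shares with Clopper-Pearson and Newcombe intervals. The text names the rule genes and, per gene list, up to 6 with the most UMIs, the 20 leading genes in Micro, the 6 highest and 6 lowest ratios of each comparison among genes with at least 30 UMIs, and Havcr2. Genes named for other reasons are said to have been chosen after their values were seen, as were Oasl1, H2-Ab1, Mcm3, Rrm2 and the members of lists past the fold. Python 3.11.15, NumPy 2.4.6, SciPy 1.17.1, pandas 2.3.3 and matplotlib 3.10.9 were used. Alternatives changed the threshold, the rule genes, the depth of cells, the thinning, the scaling, the added count and the filter on UMIs. Single results of a few genes are not reported here.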

Additional observations from a re-analysis of the deposited data

How the results depend on the processing

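No paired analysis was possible because each group had 1 library, and no library could be left out. Of 1922 values under alternative settings, 1541 stayed the same, 352 moved further and 29 reversed. Staying the same meant lying inside the counting interval of the main value. For counts of genes and for leading-gene ratios it meant lying within 1.5-fold of the main value, and for medians less than 1 UMI away. The difference of the granulocyte-monocyte share kept its direction in 20 of 20 values. Those of the setting that took the branch level in CPM could not differ from the main ones. Dividing by a cell's own total leaves the order of its lists as it was. The same holds for the other branch values of that setting, which are counted among the 1541. Alternatives that required a Cd34 UMI, left out NK-marked cells or left out cells under 10000 UMIs were chosen after seeing the data. The cause of the changes below was not tested. The AT difference in the share of members (Tim3-KD minus Ctrl) was -5.86 points at a threshold of 1, -4.66 without Cdk6, -5.40 without Ctla2a, -4.70 with 1 mean and SD over the matrices and -6.60 without cells under 10000 UMIs, a setting that gave 3.00 for Macro and -2.24 for Macro Ctrl minus Micro Ctrl. Micro Ctrl minus AT Ctrl was -2.32 without Ctla2a. The G2/M difference in Micro was 23.0 points at a threshold of 1, -0.484 with a UMI of at least 2 rule genes and -3.22 with a Cd34 UMI. Genes past the fold numbered 395 at a threshold of 1, 83 with at least 100 UMIs and 315 with no filter in Micro (Tim3-KD over Ctrl), 182 with a Cd34 UMI and 114 with at least 100 UMIs in Macro, 97 at a threshold of 2 and 59 with at least 100 UMIs for Micro over AT, and 122 without cells marked by another type (here NK cells were not among the types, and the same holds for marked cells below) and 92 with at least 100 UMIs for Macro over Micro. The leading genes shared with other comparison cells numbered 7 (promyelocyte-like), 5 (endothelial-like) and 8 (basophil-like). Ratios that reversed in Tim3-KD over Ctrl were those of Cxcl13 in Micro (0.507 at a threshold of 1, 0.661 without marked cells, 0.743 with a Cd34 UMI) and, in Macro, of Stfa2 (0.859 at a threshold of 1), Chil3 (2.36 at a threshold of 2, 2.53 with at least 2 rule genes, 3.82 without cells under 3000 UMIs, 3.42 without marked cells, 2.97 with a Cd34 UMI), Lpl (1.55 and 1.89 in the last 2 settings) and Vpreb3 (0.162 with a Cd34 UMI). Those in Micro over AT were Klk1 (0.962 at a threshold of 1), Naaa (0.644 at a threshold of 2) and Ccl5 (0.671 without NK-marked cells, 0.288 with a Cd34 UMI), and those in Macro over Micro were Vcam1 (0.417 without marked cells, 0.492 with a Cd34 UMI) and Cd302 (0.213 and 0.178). Over endothelial-like cells the members stood at 0.342 for Adgrl4, 0.522 for Myct1, 0.467 for Serpina3g and 0.137 for Egfl7, and over basophil-like cells at 0.746 for Fut8, 0.281 for Serpina3g and 0.803 for Klk8. Genes with near-identical copies had joint features in the matrices, 9 of 41 of them in Micro with UMIs in 1 library only, which makes ratios of such genes uncertain.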

Other observations

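Of the genes with most change in members with a Cd34 UMI that the report does not describe, Ltb, the gene of lymphotoxin β, stood at 24.4 CPM in Micro Ctrl and 86.1 CPM in Macro Ctrl (ratio 3.53, 2.60 to 4.83), with a UMI in 31.7% and 72.3% of the cells and a ratio of 1.21 in all other cells. Cd72, a B cell co-receptor, had 54 UMIs in Macro Tim3-KD and 2 in Macro Ctrl (ratio 5.88, 1.92 to 61.7). Its level was 11.9 CPM in Macro Tim3-KD, 1.64 in Macro Ctrl and 12.0 in Micro Ctrl, so Macro Ctrl lay below both. Tnfsf10, the gene of TRAIL, stood at a ratio of 3.39 (1.40 to 14.3) in Macro, Tim3-KD over Ctrl, with a UMI in 29.3% and 8.51% of the cells. These genes were chosen after their values had been seen.

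Plasmacytoid dendritic genes (Siglech with Cox6a2) were both present in 3 members of AT Ctrl, 10 of Micro Ctrl, 4 of Micro Tim3-KD, 2 of Macro Ctrl and 2 of Macro Tim3-KD, of which 2, 2, 1, 1 and 0 had a Cd34 UMI. Basophil genes (Mcpt8 with Prss34) were both present in 2, 6, 7, 1 and 4 members in the same order.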
